A study of Mus musculus with 3 samples.

Results

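Genes of the SCL/TAL1, LMO2 and GATA2 complex were taken by gene symbol from the deposited DamID gene lists of GFI1 and GFI1B in mouse haemogenic endothelium. The members were 8 genes chosen by name: Tal1, Lyl1, Lmo2, Lmo4, Ldb1, Gata2, Gata1 and Zfpm1. Of these 8, Tal1 and Gata2 had a row in the GFI1 list of 5238 genes, and the same 2 genes had a row in the GFI1B list of 5327 genes. The other 6 had no row in either list under their current or an older symbol. In DamID a bacterial adenine methyltransferase, DAM, is joined to a protein and methylates the sequence GATC near where that protein sits. The 3 samples came from AinV18 embryonic stem cells with a doxycycline-inducible cDNA in the HPRT docking site. It encoded the GFI1:DAM fusion, the fusion GFI1B:DAM or, as the control, DAM by itself, so the fusions were made from an introduced locus and not from Gfi1 or Gfi1b. FLK1+ cells came from day 3.25 embryoid bodies, and the TIE-2/c-KIT fraction, labelled hemogenic endothelium, was sorted at day 2 of culture. Each sample stands for 2 biological replicates together, so the values below have no replicate error and could not be tested. The lists give marked genes and not expression, so the cell type could not be checked against marker transcripts.

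TAL1 (also called SCL) is a basic helix-loop-helix (bHLH) factor that pairs with an E-protein to bind DNA, and LYL1 is its close relative. LMO2, which does not bind DNA itself, and the dimerising protein LDB1 bridge this pair to a GATA factor, which is GATA2 in stem and progenitor cells and GATA1 in red cells and megakaryocytes. The assembly is required for the first blood cells to form, and GATA2 is needed when blood stem cells emerge from endothelium. GFI1 and GFI1B are zinc-finger repressors that recruit the demethylase LSD1, so the lists bear on whether the genes of this complex carry their marks.

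The reference promoter windows of Tal1 and Gata2 are shown because a DamID mark can form only where a GATC lies. Capitals mark each GATC. Each window runs from 250 bases before an annotated start to 50 bases after it in RefSeq.
Tal1 window 1, GRCm38.p6 chr4:115056176-115056475, plus strand: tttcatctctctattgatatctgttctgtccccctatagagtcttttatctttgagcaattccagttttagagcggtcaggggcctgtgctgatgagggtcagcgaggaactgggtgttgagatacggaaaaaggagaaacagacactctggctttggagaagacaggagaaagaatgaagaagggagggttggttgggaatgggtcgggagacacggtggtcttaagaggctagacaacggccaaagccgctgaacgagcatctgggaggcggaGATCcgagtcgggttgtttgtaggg
Tal1 window 2, GRCm38.p6 chr4:115057561-115057860, plus strand: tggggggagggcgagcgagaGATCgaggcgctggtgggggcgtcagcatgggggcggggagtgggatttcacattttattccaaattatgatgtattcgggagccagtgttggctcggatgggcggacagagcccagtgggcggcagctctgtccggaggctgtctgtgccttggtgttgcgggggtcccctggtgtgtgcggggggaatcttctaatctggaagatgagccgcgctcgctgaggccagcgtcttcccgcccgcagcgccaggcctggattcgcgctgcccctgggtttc
Gata2 window 1, GRCm38.p6 chr6:88193641-88193940, plus strand: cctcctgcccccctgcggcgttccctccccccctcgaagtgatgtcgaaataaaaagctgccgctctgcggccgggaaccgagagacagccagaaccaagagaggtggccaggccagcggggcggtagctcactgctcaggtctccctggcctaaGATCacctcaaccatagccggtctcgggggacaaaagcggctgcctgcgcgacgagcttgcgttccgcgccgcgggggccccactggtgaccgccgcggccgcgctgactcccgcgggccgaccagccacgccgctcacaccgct
Gata2 window 2, GRCm38.p6 chr6:88198414-88198713, plus strand: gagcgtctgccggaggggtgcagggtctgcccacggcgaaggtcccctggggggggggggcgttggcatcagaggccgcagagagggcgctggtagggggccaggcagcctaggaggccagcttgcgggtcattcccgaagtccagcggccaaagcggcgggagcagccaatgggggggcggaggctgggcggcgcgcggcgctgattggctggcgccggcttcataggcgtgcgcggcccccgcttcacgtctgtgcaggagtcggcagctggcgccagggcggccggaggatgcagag
Window 1 of Tal1 held its GATC 25 bases after the start, and window 2 held its own at position -230. Window 1 of Gata2 held a GATC at position -95, and window 2 held none. Windows were on record for 7 of the 8 members, 13 in all, and 8 of the 13 held a GATC. Of all 32851 mouse promoter windows of this length 48.0% held one. The letters AATC, the core bound by GFI1 proteins, read on both strands, stood 4 times in window 2 of Tal1, once in window 2 of Gata2 and nowhere in the first window of either gene. AATC was present in 73.1% of all windows. The E-box CANNTG, bound by TAL1 with its E-protein, stood once in window 1 of Tal1 and once in window 2 of Gata2, against 72.3% of all windows with a match. The GATA-type letters AGATAA, again on both strands, were found in window 1 of Tal1 and in 11.2% of all windows, and TGATAA was in none of these 4 windows and in 9.05% of all. No match of 1 of these motifs shared a base with a match of another in these 4 windows. The deposited intervals are on mm9 and these windows on GRCm38.p6, so whether an interval covers a window is not given here.

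The share of members listed in each list was close to that of other genes. For GFI1, 2 of 8 members were listed, beside 18.4% of 21900 protein-coding genes in RefSeq. For GFI1B it was again 2 of 8, beside 19.1%. For both fusions together it was 2 of 8, beside 11.0%. List rows that matched no RefSeq symbol are left out of these background shares, which may therefore be low. A single gene more or fewer would move the members' share by more than the gap to the background of either list. For both fusions together the gap was larger than 1 gene and smaller than 2. Length went with listing: of 4472 protein-coding genes longer than every member 43.4% were in the GFI1 list, and of 3679 shorter than every member 4.38%. Among the 13749 protein-coding genes between the shortest member, Lyl1 at 3.29 kb, and the longest, Zfpm1 at 56.0 kb, the shares were 14.0% for GFI1, 15.0% for GFI1B and 7.06% for both. Length did not order the members, since Tal1 (15.3 kb) and Gata2 (13.1 kb) were shorter than Lmo2 (24.0 kb), Gata1 (17.4 kb), Lmo4 (16.7 kb) and Ldb1 (16.6 kb).

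Tal1 (ENSMUSG00000028717) was marked at 1 place by GFI1 and at 3 places by GFI1B. The GFI1 interval lay on chromosome 4 from 114734284 to 114735234 (mm9), 951 bp wide, and held 147 reads, or 155 reads per kb. Reads per kb is the authors' read number divided by the summed width of a gene's intervals, with no scaling to library size, so it ranks genes inside a list and is not compared between lists. By this measure Tal1 ranked 101 of 5238 in the GFI1 list, above 98.1% of the genes, where the list's median was 48.7 reads per kb. In the GFI1B list Tal1 held 480 reads over 7153 bp, or 67.1 reads per kb, above 69.0% of the genes of that list, whose median was 53.6. The GFI1B intervals ran from 114727764 to 114731564, from 114734214 to 114735464 and from 114743814 to 114745914. They measured 3801, 1251 and 2101 bp and spanned 18.2 kb in all. The first of them was wide for this list, in which 2.71% of intervals measured 3801 bp or more. The GFI1B list was larger as a whole. Read numbers summed over its rows were 800266, against 582266 for GFI1, and its median interval width was 1351 bp, against 1201 bp. Rows with 3 or more intervals were 10.55% of the GFI1B list and 8.92% of the GFI1 list.

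The middle GFI1B interval of Tal1 enclosed the GFI1 interval entirely. Its edges lay 70 bp and 230 bp outside those of GFI1, and interval widths in both lists move in steps of 50 bp. Of all 7166 GFI1 intervals 39.2% overlapped a GFI1B interval and 11.9% lay wholly inside one. The outer GFI1B intervals of Tal1 lay 2.65 kb and 8.35 kb from the middle one and overlapped no GFI1 interval. Thus 2 of the 4 GFI1B intervals of the members overlapped, beside 36.9% of all 7595 GFI1B intervals. These shares of all intervals take in genes in 1 list only, unlike the 2 listed members. The share among intervals of genes in both lists is not given. Among the 1893 genes in both lists with 1 GFI1 interval, 108 (5.71%) had 3 or more for GFI1B, as Tal1 did, and 1407 (74.3%) had 1. All Tal1 intervals were listed under no other gene. The deposited read number is a sum over a gene's intervals, so the share of the 480 GFI1B reads that fell in the enclosing interval is not given.

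Gata2 (ENSMUSG00000015053) was marked at 1 place by each fusion, and at nearly the same place. The GFI1 interval lay on chromosome 6 from 88156714 to 88157664 (mm9), 951 bp wide, with 43 reads, or 45.2 reads per kb. That stood above 41.2% of the genes of the GFI1 list. The GFI1B interval ran from 88156505 to 88157305, 801 bp wide, with 56 reads, or 69.9 reads per kb, above 72.0% of the genes of the GFI1B list. They shared 592 bp, which is 62.3% of the GFI1 interval and 73.9% of the GFI1B interval. Neither interval was listed under another gene. Both GFI1 intervals of the members thus overlapped a GFI1B interval of the same gene. Of all 2953 genes in both lists, 77.5% had an overlapping interval.

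The 2 members stood in opposite order in the lists. In the GFI1 list Tal1 was far above Gata2, and in the GFI1B list Gata2 was slightly above Tal1. Tal1 stood 29.1 percentile points lower in the GFI1B list than in the GFI1 list, and Gata2 stood 30.8 points higher. Such shifts were not rare. Of the 2953 genes in both lists, 12.3% stood as far below their GFI1 percentile as Tal1 or further, and 12.6% as far above it as Gata2 or further. These shares are over all such genes, including those standing too low or too high in the GFI1 list to shift that far. How usual such shifts are among genes starting where Tal1 or Gata2 did is not given. With 1 pooled measurement per fusion, the spread of these ranks between replicates is unknown. For Tal1 the GFI1 value covers 951 bp in 1 interval and the GFI1B value 7153 bp in 3, so its ranks cover unlike regions. Whether control reads were subtracted in both lists is unknown too. The order also depended on the measure, because Tal1 held more reads than Gata2 in both lists, 147 against 43 for GFI1 and 480 against 56 for GFI1B.

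**Figure D1:**
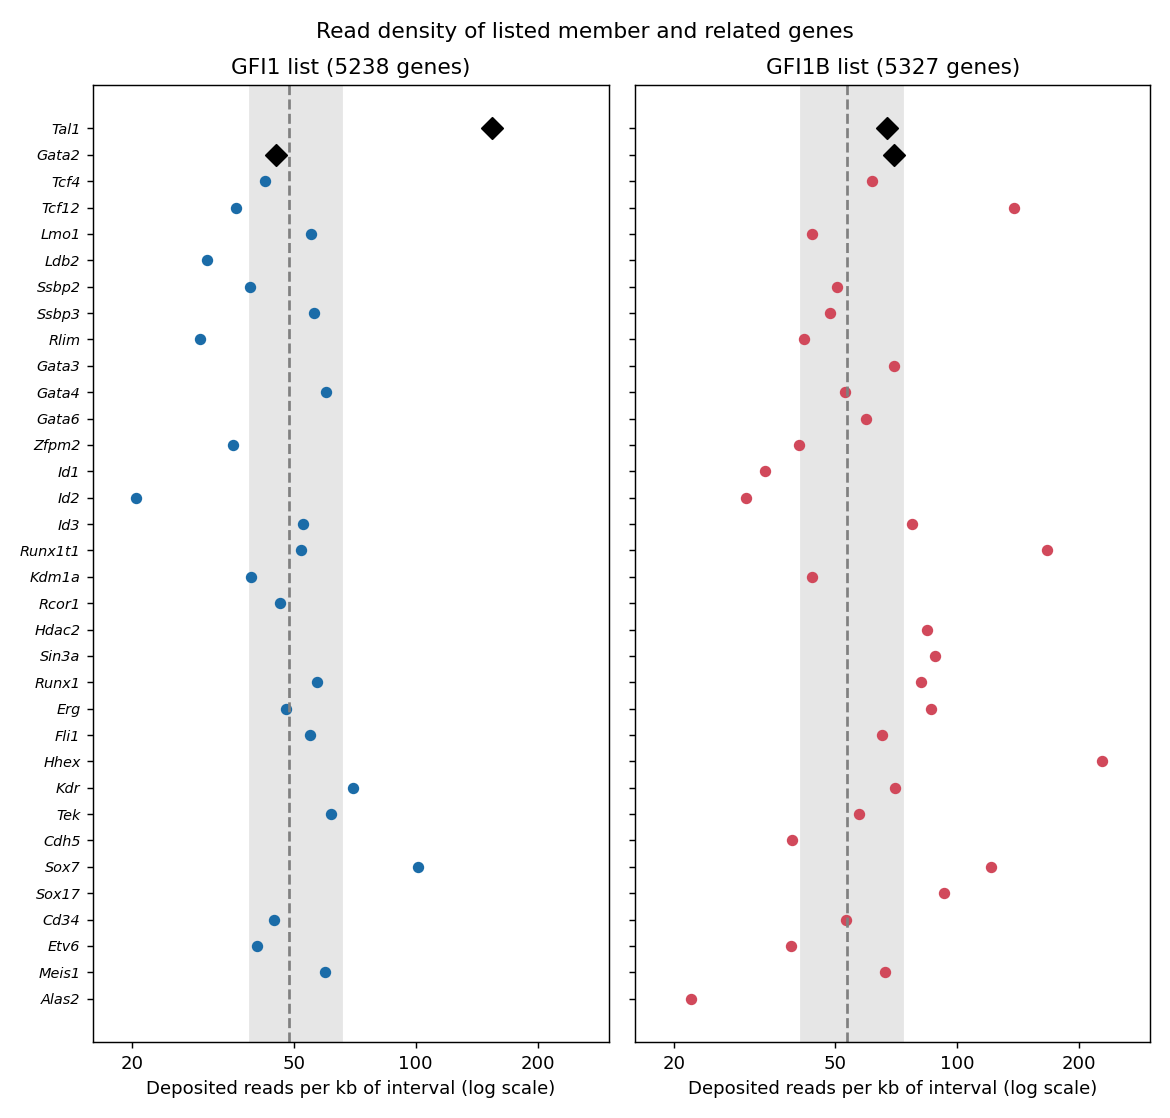
Deposited reads per kb of interval (x axis, log scale) for each listed complex member (black diamonds) and related gene (circles) in the GFI1 list (left) and the GFI1B list (right), 1 pooled value per point. The dashed line is the list's median (48.7 and 53.6) and the grey band its interquartile range. Tal1 stands at 155 in the GFI1 list and at 67.1, beside Gata2 at 69.9, in the GFI1B list. A gene with no point was not listed.

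The surroundings of Tal1 and Gata2 differed. Within 100 kb of the GFI1 interval of Tal1 the GFI1 list held 5 further intervals. The median over all GFI1 intervals was 1, and 4.41% had 5 or more. They belonged to Cmpk1, a nucleotide kinase gene (87.8 kb away, 42.0 reads per kb), Stil, a centriole assembly gene (16.3 and 29.4 kb away, 52.3 reads per kb over both), Pdzk1ip1, a membrane protein gene (31.4 kb away, 67.4 reads per kb), and the pseudogene Cyp4a28-ps (95.0 kb away, 42.0 reads per kb). In the GFI1B list each Tal1 interval had 3 further intervals within 100 kb, its 2 fellow Tal1 intervals among them, where the median over all GFI1B intervals was 1 and the third quartile 3. The only other gene was Pdzk1ip1, 20.5 kb from the nearest Tal1 interval at 69.7 reads per kb. The Pdzk1ip1 intervals of the fusions shared 1681 bp, which is 96.0% of the GFI1 and 90.8% of the GFI1B interval. Stil and Pdzk1ip1 are the genes next to Tal1 on either side in the RefSeq order. Human STIL and TAL1 are known for fusing by deletion in T-cell leukaemia. Around Gata2 neither list held a further interval within 100 kb, as for 33.5% of all GFI1 and 26.9% of all GFI1B intervals.

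**Figure D2:**
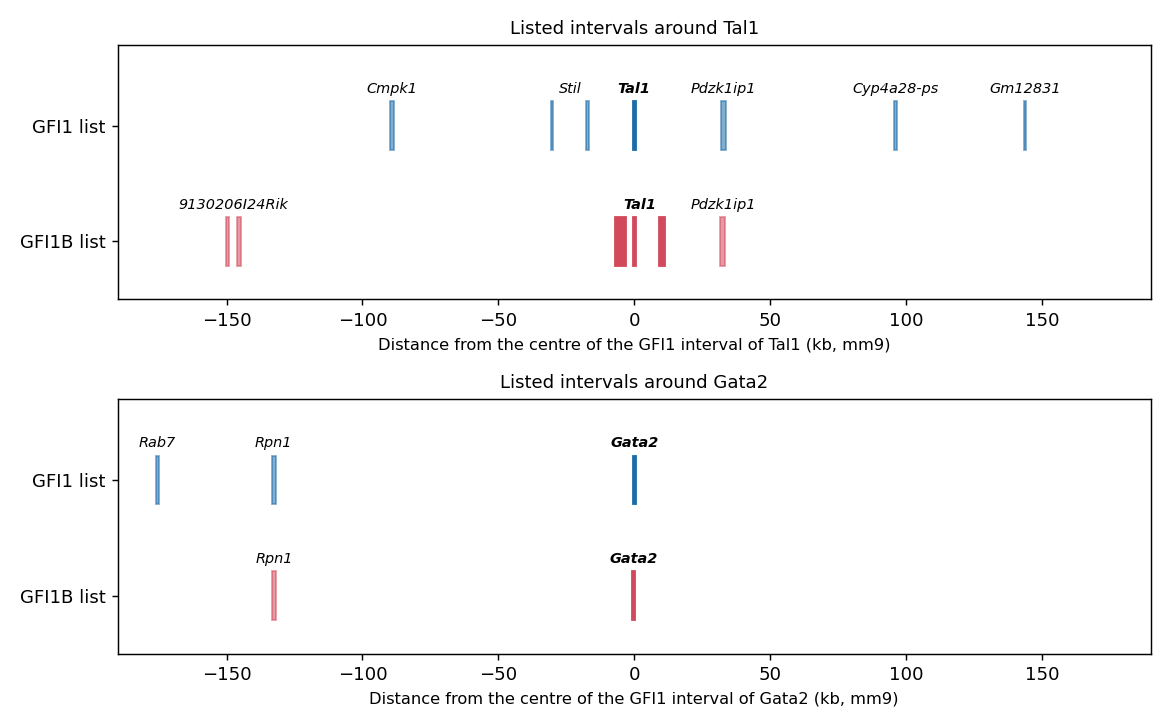
Intervals of the GFI1 list (blue) and the GFI1B list (red) drawn to scale around Tal1 (top) and Gata2 (bottom). The x axis is the distance in kb from the centre of the member's GFI1 interval on mm9, with the members' own intervals in full colour and those of other genes paler. Tal1 has 1 GFI1 and 3 GFI1B intervals with listed genes on both sides, and Gata2 has 1 interval in each list with no other within 100 kb.

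Of the members with no row, Lyl1 encodes the TAL1 relative, Lmo2 the bridging LIM-only protein, Lmo4 another LIM-only protein that binds LDB1, and Ldb1 the dimerising scaffold. Gata1 encodes the red cell GATA factor and Zfpm1 the cofactor FOG1, which binds GATA1 and GATA2. Absence of a row says that no interval was assigned to the gene, and the sources used here do not state the distance at which the authors assigned intervals. It does not show that a gene was unmarked.

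A further 60 genes with roles around the complex were looked up, in 8 groups by role. The GFI1 list held 23 of them and the GFI1B list 30, with 21 in both. The shares of all protein-coding genes given above, 18.4% for GFI1, 19.1% for GFI1B and 11.0% for both, are the background of these counts and of the counts by group below. The listed genes were longer, with a median of 54.3 kb for the 32 in either list and 16.5 kb for the 28 in neither, and the part of length in these counts was not tested. Their median reads per kb were 47.9 for GFI1 and 60.7 for GFI1B, near the lists' medians of 48.7 and 53.6.

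Among 6 bHLH partners and relatives, the E-protein genes Tcf4 and Tcf12 were listed for both fusions, and Tcf3, Tal2, Nhlh1 and Nhlh2 for neither. Tcf4 had 5 GFI1 and 7 GFI1B intervals, at 42.4 and 61.7 reads per kb, and 1 interval of each list overlapped. Tcf12 had 3 intervals in each list, at 36.1 (GFI1) and 138 (GFI1B) reads per kb, and none overlapped. Its GFI1 value lay above 18.4% of the genes of that list and its GFI1B value above 95.6%. Tcf12 was in this unlike Tal1 and Gata2, whose GFI1 intervals each lay on a GFI1B interval. Of all 2953 genes in both lists 77.5% had an overlapping interval.

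Of 8 LIM relatives and cofactors, the GFI1 list held 5 and the GFI1B list 4. Lmo1, a LIM-only gene related to Lmo2, had 1 interval in each list, at 55.1 (GFI1) and 43.8 (GFI1B) reads per kb, with 749 bp shared between its intervals. Ssbp2 and Ssbp3, which encode proteins that stabilise LDB1, were listed for both. Ssbp2 had 1 interval of over 3 kb in each list (3301 and 3451 bp) that shared 3297 bp, at 39.1 and 50.4 reads per kb. Ssbp3 had 3 and 4 intervals, at 56.0 and 48.5 reads per kb, of which 2 overlapped. Rlim, whose product marks LDB1 for degradation, stood at 29.3 reads per kb in the GFI1 list, above 6.63% of the genes, and at 41.9 in the GFI1B list, above 26.1%. Ldb2, the relative of Ldb1, was listed for GFI1 alone at 30.6 reads per kb, above 8.41% of that list. Lmo3, Ssbp1 and Ssbp4 were in neither.

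Of 5 GATA and FOG relatives, the GFI1 list held 2 and the GFI1B list 4. Gata4, a cardiac and endodermal factor, had 3 GFI1 intervals at 60.2 reads per kb and 1 GFI1B interval at 52.8, which lay inside a GFI1 interval. Gata3, a T-cell factor, and Gata6, a cardiac and endodermal factor, appeared in the GFI1B list alone, at 69.7 and 59.7 reads per kb. One of the 2 Gata3 intervals was also listed under another gene, 9230102O04Rik. Zfpm2, which encodes the FOG relative of Zfpm1, had 4 GFI1 and 6 GFI1B intervals, of which 2 overlapped, at 35.4 and 40.7 reads per kb. Gata5 was in neither list.

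The ID proteins inhibit bHLH factors by binding E-proteins. Id3 reached 52.7 (GFI1) and 77.3 (GFI1B) reads per kb, with 1 interval in each list and 2251 bp shared, so that the GFI1 interval enclosed the GFI1B interval. Id2 was near the bottom of both lists, at 20.4 and 30.2 reads per kb, above 0.640% and 6.35% of the genes. Id1 was listed for GFI1B alone at 33.6 reads per kb, and Id4 for neither.

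Of 9 genes of corepressor partners, GFI1 marked 3 and GFI1B marked 4. Runx1t1, which encodes ETO, reached 52.2 (GFI1) and 166 (GFI1B) reads per kb, with 1 and 2 intervals and no overlap. Its relative Cbfa2t3, which encodes the TAL1 partner ETO2, was in neither list, as were Cbfa2t2, Hdac1 and Chd4. Kdm1a, the LSD1 gene, had 4 GFI1 and 2 GFI1B intervals, and both GFI1B intervals lay inside GFI1 intervals. Rcor1 was listed for GFI1 alone, and Hdac2 and Sin3a for GFI1B alone, Sin3a through an interval also listed under 2700012I20Rik.

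The products of Runx1, Erg and Fli1 bind together with TAL1, LYL1, LMO2 and GATA2 in blood stem and progenitor cells. Runx1, Erg and Fli1 were all listed for both fusions, as were 11.0% of all protein-coding genes. That share takes in genes of every length. Of protein-coding genes longer than every member, 43.4% carried a GFI1 mark and 43.9% a GFI1B mark. The share of such longer genes marked by both fusions is not given. The lengths of Runx1, Erg and Fli1 are not given either, and the part of length here was not tested. Runx1, Erg and Fli1 held 11 GFI1 and 12 GFI1B intervals, of which 6 in each list overlapped. The shares of all intervals that overlapped were 39.2% for GFI1 and 36.9% for GFI1B. Unlike Runx1, Erg and Fli1, these shares take in genes not listed for both fusions. The share among intervals of genes in both lists is not given. Runx1, Erg and Fli1 each had an overlapping interval, as did 77.5% of all genes in both lists. None of the 5 partner genes of red cells and their forebears was listed for either fusion. They were Klf1, the red cell KLF factor, Nfe2, Spi1, Bcl11a and Gfi1b, the gene of the factor in the GFI1B:DAM fusion. With 18.4% and 19.1% of all protein-coding genes listed, a count of 0 of 5 is near the background.

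Another 20 genes were taken as textbook targets of TAL1, LMO2 or GATA factors. They were chosen with earlier results of these data known and are not an independent list of targets. Of these 20, 6 carried a GFI1 mark and 10 a GFI1B mark, and each of the 6 was among the 10. The shares of all protein-coding genes were 18.4%, 19.1% and, for both, 11.0%. These 6 were Kdr, Tek, Sox7, Cd34, Etv6 and Meis1, all with at least 1 overlapping interval, beside 77.5% of all genes in both lists. Cd34, a surface protein of endothelium and progenitors, had both of its GFI1 intervals inside GFI1B intervals, which numbered 4. Etv6, an ETS repressor gene, had 6 and 9 intervals, of which 3 overlapped, at 40.5 and 38.8 reads per kb. Hhex, Sox17, Cdh5 and Alas2 appeared in the GFI1B list alone. Hhex, at 228 reads per kb, ranked 66 of 5327, while Alas2, the red cell gene of haem synthesis, stood at 22.1, above 1.09% of the list, and shared its interval with Apex2. The 10 in neither list included Kit, Myb, Epor and Itga2b.

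**Figure D3:**
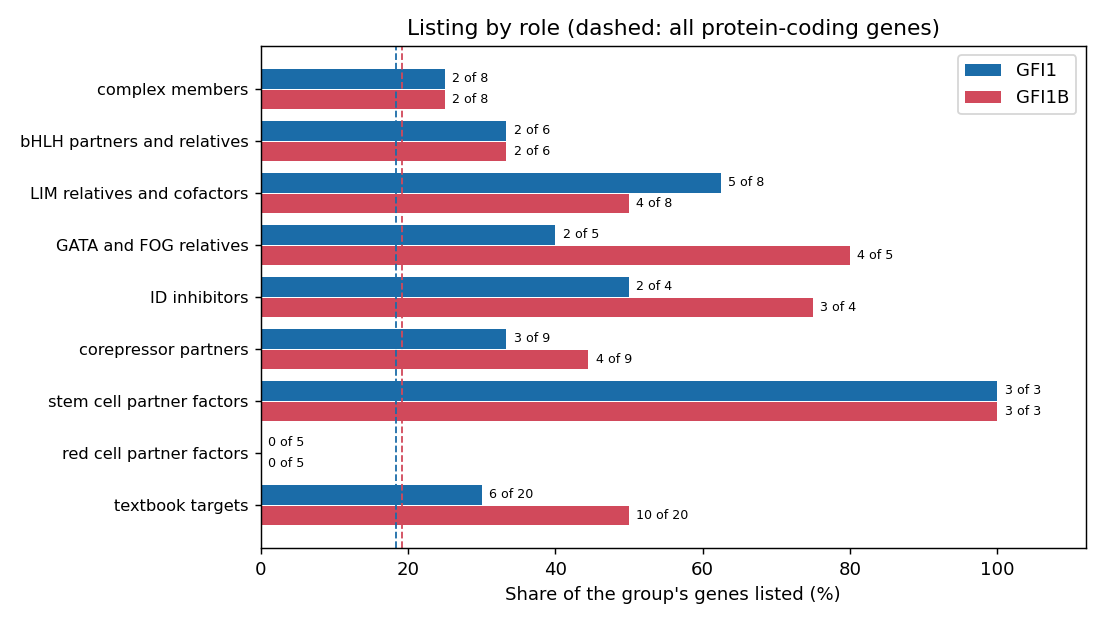
Share of genes listed (x axis, %) for the complex members and each of the 8 related groups, for GFI1 (blue) and GFI1B (red), with the count beside each bar. Dashed lines mark the share of all protein-coding genes, 18.4% and 19.1%. The members (2 of 8) lie near those lines, and the partner genes of red cells (0 of 5) have no listed gene.

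**Figure D4:**
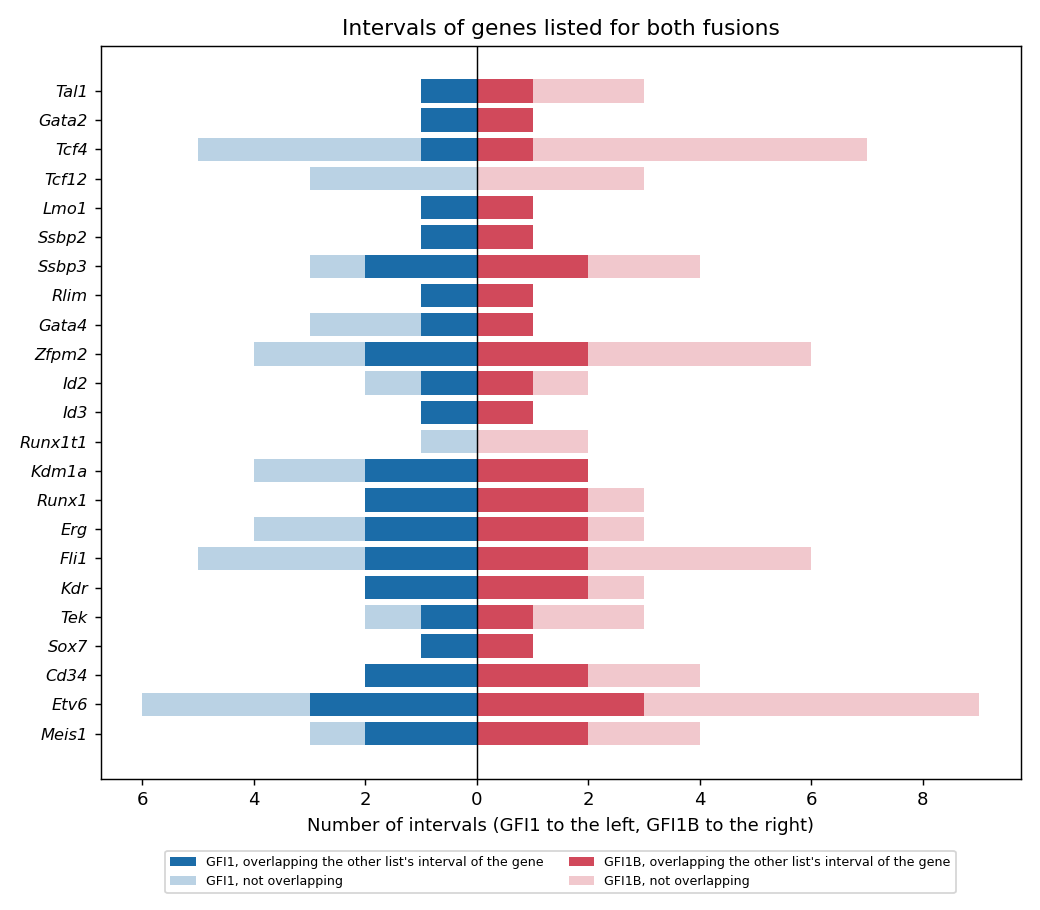
Number of intervals per gene for members and related genes listed for both fusions, GFI1 to the left and GFI1B to the right (x axis, count). Full colour marks intervals that overlap one of the same gene in the other list by at least 1 bp, and pale colour the others. Tal1 and Gata2 have an overlapping interval, and Tcf12 and Runx1t1 have none.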

How the data were processed

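The worksheet names gave the fusion of each deposited list, and the DAM control's own values were not used here. Per the file headers, the GFI1B list was made with BayesPeak and a method written SS at a threshold of 0.05, after lanes were merged and control reads subtracted. The header of the GFI1 list names only BayesPeak, so whether a control was subtracted there is unknown. The intervals of both lists are labelled SS, so the lists may have been made by the same method. A control used for both lists would be shared by them. The submitters' processing notes name mm9. The read number deposited by the authors was handled as a score, because control reads may have been taken off. The signal they deposited is a read density per kb, and recomputing it gave the same value within 0.0050 in every row. Library depth is unknown, so no counting interval is given.

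Intervals were compared with Python 3.11.15 and pandas 2.3.3, with an overlap of at least 1 bp. A percentile is the percent of a list's rows below a value, ties counted at 50%. Symbols were matched to 49997 mouse genes of RefSeq on GRCm38.p6 (4633 of 5238 and 4745 of 5327 rows), which supplied names, lengths and gene order. Promoter windows are RefSeq's. The overlap step was tested on simulated intervals with known overlaps. The members, the related genes and the comparisons were chosen with earlier results of these data known. All members, every listed related gene and every gene with an interval within 100 kb of a member's were to be named. No test was made, because each fusion has 1 pooled sample. The alternatives tried were other backgrounds, the stronger 50% of each list, intervals under no other gene, older symbols, other overlap rules and other rankings.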

Additional observations from a re-analysis of the deposited data

How the results depend on the processing

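Of 25 alternatives to the counts, overlaps and percentiles of the members, 8 could not move the value: 5 change the background alone, and 3 drop intervals listed under other genes, of which the members had none. Of the other 17, 11 left the value as it was or inside its 95% exact binomial interval over the rows of the list. That interval treats the rows as draws and does not measure error in a gene's signal. In the 50% of the GFI1 list with more reads per kb, 1 member (Tal1) was listed, since Gata2 stood below that list's median, and so 1 was listed for both fusions. The share of all protein-coding genes in that 50% is not given, so these counts have no background here. Ranked by the deposited read number, which grows with interval width, Tal1 stood above 80.3% of the rows for GFI1 and 96.2% for GFI1B, and Gata2 above 19.3% and 24.2%. Older symbols, an overlap of at least 50% of both intervals, centres within 500 bp and ranking among genes with the same number of intervals moved none of these members' values beyond those limits. The shares of all intervals were lower under these overlap rules than at 1 bp. An overlap of at least 50% of both was met by 28.5% for GFI1 and 26.9% for GFI1B. Centres lay within 500 bp for 28.2% and 26.6%. For the ranking among genes with the same number of intervals, genes with 1 interval were 3929 of the 5238 GFI1 rows and 3832 of the 5327 GFI1B rows. That ranking was thus largely over the same rows, except for Tal1 in the GFI1B list (307 rows). The background of protein-coding genes in the members' length range was chosen after seeing the data. No paired analysis was possible because each fusion has 1 pooled list. Replicates could not be left out for the same reason. Depth is unknown, so how far it limits the absence of 6 members was not tested.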

Other observations

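The genes described here were picked after their values were seen. The nearest listed interval to Gata2 belonged to Rpn1, a ribophorin gene that lies next to it in the RefSeq order, and it was strong in both lists. It lay 131.4 kb from the GFI1 interval of Gata2 at 145 reads per kb, above 97.5% of the GFI1 list. In the GFI1B list it lay 131.1 kb away, again at 145 reads per kb and above 96.1% of that list. The Rpn1 intervals shared 1410 bp, which is 93.9% of the GFI1 and 97.2% of the GFI1B interval. As background, a distant enhancer of Gata2 lies between it and Rpn1. Whether either interval covers it is not given here. On the far side of Pdzk1ip1 from Tal1, Gm12831 had a GFI1 interval 142.8 kb from that of Tal1 at 177 reads per kb, above 99.1% of the list, and it was not listed for GFI1B.

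Among the 5 protein-coding genes on either side of each of the 6 members with no row, 13 of 60 were listed for GFI1 and 14 for GFI1B. That is 21.7% and 23.3%, near the 18.4% and 19.1% of all protein-coding genes. For Lmo2, 2 of 10 neighbours were listed for GFI1 and 4 for GFI1B, among them Abtb2 (in the GFI1 list at 65.1 reads per kb, in the GFI1B list at 83.3) and the adjacent 4931422A03Rik (45.0 for GFI1B). For Lmo4, 4 and 3 of 10 were listed, with the adjacent Hs2st1, a heparan sulfate enzyme gene, at 40.6 reads per kb for GFI1B. For Ldb1, 3 and 3 of 10 were listed, and neither adjacent gene, Hps6 or Pprc1, was among them. For Gata1, 3 and 2 of 10 were listed, with the adjacent Glod5 at 23.4 reads per kb for GFI1, above 1.42% of that list, and Suv39h1, a histone methyltransferase gene, at 27.4 and 33.7. Around Lyl1 0 and 1 of 10 were listed, and around Zfpm1 1 and 1. The gene order is that of GRCm38.p6 and no distance was taken from it.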
